A study of Homo sapiens with 10 samples.

Results

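The comparison described here is that of the BET inhibitor JQ1 with its vehicle DMSO after 8 h, in K562 cells, an established human chronic myeloid leukaemia line with erythroid features. It rests on 2 of the 10 libraries of a SLAM-seq experiment, 1 from JQ1 and 1 from DMSO, and on 11797 of 59204 human genes, those with a mean of at least 20 total reads over the 10 libraries. SLAM-seq marks RNA with 4-thiouridine, which sequencing reports as a T-to-C change once iodoacetamide has modified it. All cells had been given 30 µM 4-thiouridine for 12 h, with the medium renewed every 3 h, and were then washed and put into medium with 3 mM uridine. From that point the treated cells received 1 µM JQ1 and the control cells DMSO, and RNA was taken at 2, 4 and 8 h. Another arm received 1 µM AZ-5576, an inhibitor of the kinase CDK9, and a single library taken at 0 h of the uridine chase serves all 3 arms. Reads came from the 3′ ends of polyadenylated RNA, and RNA from fly S2 cells had been added at 5% to the purified human RNA. Counts were divided by the library's fly reads, so a level is relative to the mass of RNA taken and not to the number of cells, and fewer cells and less RNA per cell cannot be told apart. Each arm and time has 1 library, so no difference below has a replicate check, and no test was made. Intervals are exact 95% intervals on the ratio of the counts and cover counting error only.

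BET proteins, among them BRD2 and BRD3, bind acetylated histones through their bromodomains and bring the elongation kinase P-TEFb to promoters and enhancers. JQ1 occupies those bromodomains, and the genes known to respond most are often those with large enhancers, which in erythroid leukaemia cells include lineage transcription factors and MYC. A counter-response is also known, in which HEXIM1, the inhibitor that holds P-TEFb in the 7SK complex, and a set of histone genes go up. HEXIM1 is used in clinical work as a marker of BET inhibition.

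The 8 h libraries held 13859882 total reads in JQ1 and 16008906 in DMSO. They held 1746128 fly reads in JQ1 and 1763347 in DMSO. Human reads per fly read were 7.94 in JQ1 and 9.08 in DMSO. All 15 K562 marker genes checked passed the read minimum, and none was at 0 in JQ1 or in DMSO. Their summed level was 86350 reads per 1000000 fly reads in JQ1 and 93540 in DMSO. Of 20 markers of other cell types, 6 were at 0 in JQ1 and 3 in DMSO. Their summed level was 4669 in JQ1 and 6620 in DMSO, led by the keratin gene KRT8.

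At 8 h the typical transcript was lower in JQ1 per fly read. The median log2 ratio of JQ1 over DMSO was -0.31 over all 11797 genes, and the list and gene values below are to be read against it. Scaled to the human reads instead, the median was -0.12, and with TMM scaling, which centres the bulk of genes, it was 0.02. A log2 ratio of -1 or less was found for 1753 genes (14.9%) and of 1 or more for 404 (3.42%). With TMM scaling these counts were 987 and 754 in the same order of direction. The counting interval of the ratio left out 1 for 1748 of the 1753 lower and 394 of the 404 higher genes. Low counts held many of the calls: among the 465 genes with a mean of 20 to 25 reads, 26.2% were lower and 8.39% higher, and among the 596 just under the minimum, with 15 to 20, the shares were 28.7% and 11.9%.

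**Figure D1:**
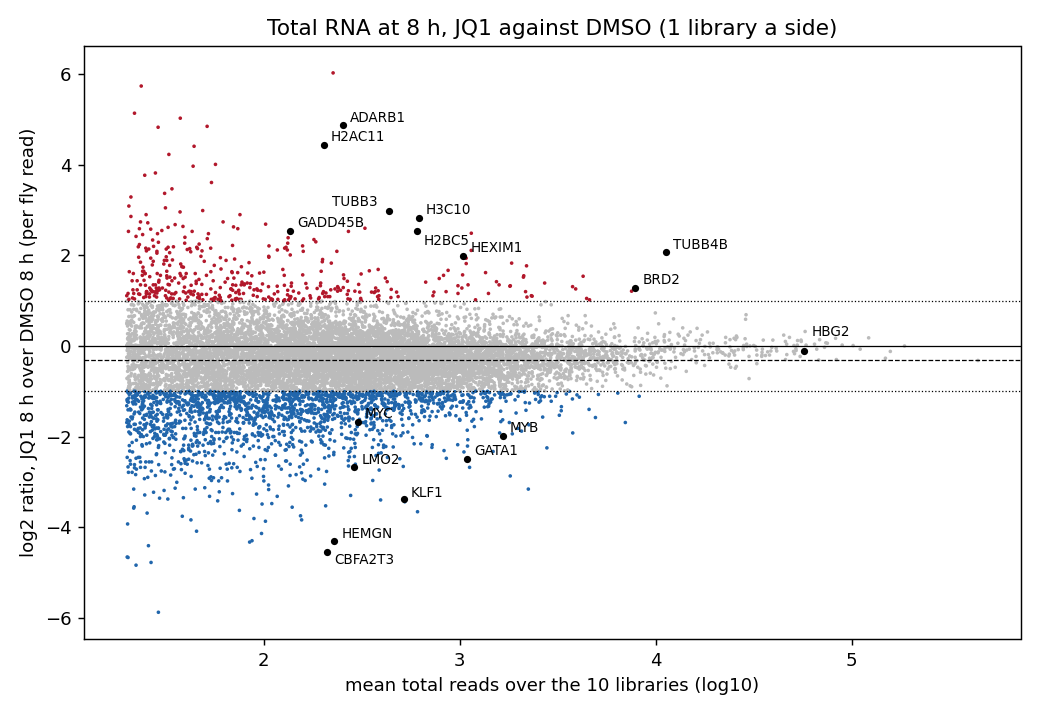
Log2 ratio of total RNA, JQ1 8 h over DMSO 8 h per fly read, against the log10 mean of total reads over the 10 libraries, with 1 point per gene (11797 genes, 1 library a side). Genes at 1 or more are red and those at -1 or less blue, dotted lines mark both limits, and the dashed line marks the median of -0.31. Erythroid regulators such as CBFA2T3 and HEMGN lie lowest among the named points, ADARB1 and H2AC11 highest, and the abundant globin HBG2 lies near 0.

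The lower genes included genes with less RNA in JQ1 than at the start and genes with more RNA in DMSO than at the start. Against the shared 0 h library, 655 of the 1753 lower genes (37.4%) had at least 2-fold less RNA in JQ1 at 8 h. A further 1033 (58.9%) were within 2-fold of 0 h in JQ1, as were 8275 of all 11797 genes. In DMSO, 730 of the 1753 lower genes (41.6%) stood at least 2-fold above 0 h. Their median log2 difference from 0 h was -0.71 in JQ1 and 0.81 in DMSO, beside 0.15 in JQ1 and 0.51 in DMSO over all genes. These comparisons share libraries with the JQ1 to DMSO ratio that chose the genes, so they describe how it arose and are no further support for it. Most of the higher genes had more RNA in JQ1 than at the start: 296 of 404 (73.3%) were at least 2-fold above 0 h there, and in 61 DMSO was at least 2-fold below it. The median log2 difference of the higher genes from 0 h was 1.73 in JQ1 and 0.21 in DMSO, beside the same 0.15 and 0.51 over all genes. The shares of all genes at least 2-fold above or below 0 h were not counted. Whether the 2-fold counts of the lower and higher genes stand out from all genes is therefore not known. At 2 and 4 h, in other libraries, 1414 of the lower genes (80.7%) had a ratio below 0 at both times, and 232 of the higher genes (57.4%) a ratio above 0 at both. Over all genes the shares were 66.5% below 0 and 8.65% above 0 at both times. Across all genes the 8 h log2 ratio had a Pearson correlation of 0.575 with the 4 h ratio and 0.289 with the 2 h ratio. These are correlations over 11797 genes that share library depth and scaling, not over replicates.

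CBFA2T3 and HEMGN lay furthest below DMSO among genes with at least 100 reads on average and the same sign at 2 and 4 h. CBFA2T3, also called ETO2, is a corepressor that works with GATA1, TAL1 and LMO2. Its level in JQ1 was 111, 66.9 and 20.6 reads per 1000000 fly reads at 2, 4 and 8 h, against 161, 148 and 485 in DMSO, with 145 in the 0 h library. CBFA2T3 at 8 h was thus at 4.25% of DMSO (interval 2.95 to 5.93%), with JQ1 lower at each later time and DMSO at 8 h above its own earlier levels. HEMGN, or hemogen, is a nuclear protein of blood cell progenitors. Its level was 100, 38.9 and 25.8 in JQ1, against 182, 255 and 517 in DMSO, with 98.0 at 0 h. HEMGN was at 4.99% of DMSO at 8 h (3.61 to 6.73%), and the arms were already apart at 2 h. ARHGAP22, a GTPase-activating protein, had 18 reads in JQ1 and 273 in DMSO (log2 -3.87). ICAM2, an adhesion molecule of endothelium and blood cells, had 41 reads in JQ1 and 600 in DMSO (log2 -3.84). The 12 lowest genes by the same rule also included RHOH, RAB3IL1, SAMD10, NFE2, TNFRSF8 (the receptor CD30), KLF1 and the chromosome 8 noncoding gene CCDC26, with log2 ratios from -3.56 to -3.32. None of these 12 had reached -1 at 2 h: their ratios there ran from -0.91 to -0.22, and those at 4 h from -3.00 to -0.63.

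Histone genes made up 5 of the 12 genes furthest above DMSO by the same rule. ADARB1 encodes ADAR2, an enzyme that edits adenosine to inosine in RNA. Its level was 43.0, 349 and 872 at 2, 4 and 8 h in JQ1, against 42.2, 33.6 and 29.5 in DMSO, with 27.7 at 0 h. The arms of ADARB1 did not differ at 2 h (log2 0.02), and at 8 h JQ1 was 29.6-fold DMSO (22.4 to 39.8). H2AC11, a gene for histone H2A, was at 115, 198 and 462 in JQ1, against 96.9, 55.5 and 20.98 in DMSO, with 93.9 at 0 h. H2AC11 at 8 h thus stood above the 0 h level in JQ1 and below it in DMSO, at a ratio of 22.0 (15.8 to 31.5). TUBB3, the neuronal class of beta tubulin, was at 174, 589 and 1259 in JQ1, against 50.5, 104 and 160 in DMSO, with 46.6 at 0 h. TUBB3 was the only one of the 12 highest genes other than GADD45B and FGF18 that was past 1 at 2 h, with log2 ratios of 1.78, 2.49 and 2.97. The 12 also held the histone genes H3C10, H2BC5, H2BC21 and H2BC8, DHRS2 (a mitochondrial short-chain dehydrogenase) and CCDC92, with log2 ratios from 2.21 to 2.83. FGF18, a fibroblast growth factor, differs from these in its path: it was at 36.7 in JQ1 and 7.37 in DMSO at 8 h, both below the 133 of 0 h. For FGF18 JQ1 was therefore above DMSO (log2 2.27) with less RNA than at the start.

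The promoters of the 3 lowest and the 3 highest of these genes are given below, so that both ends of the response can be set side by side at the level of sequence. They are RefSeq promoters on GRCh38.p14, 250 bases before to 50 after the listed start and read 5′ to 3′ along the gene, the first entry where a gene has several. Capitals mark exact matches, on either strand, to AGATAA (the core of a GATA factor site), CACGTG (an E-box bound by MYC and MAX), the TATA box TATAAA, the box CCAAT that binds NF-Y, or TGACTCA (an AP-1 or NF-E2 core). The positions are chr16:88941301-88941600 on the minus strand for CBFA2T3, chr9:97944803-97945102 minus for HEMGN, chr10:48656216-48656515 minus for ARHGAP22, chr21:45074328-45074627 plus for ADARB1, chr6:27132793-27133092 plus for H2AC11 and chr16:89921675-89921974 plus for TUBB3.
CBFA2T3: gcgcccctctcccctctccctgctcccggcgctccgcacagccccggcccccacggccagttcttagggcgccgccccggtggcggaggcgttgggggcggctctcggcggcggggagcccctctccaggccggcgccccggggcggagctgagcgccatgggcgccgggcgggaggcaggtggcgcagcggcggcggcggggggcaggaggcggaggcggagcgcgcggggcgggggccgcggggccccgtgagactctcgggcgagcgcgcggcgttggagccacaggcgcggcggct
HEMGN: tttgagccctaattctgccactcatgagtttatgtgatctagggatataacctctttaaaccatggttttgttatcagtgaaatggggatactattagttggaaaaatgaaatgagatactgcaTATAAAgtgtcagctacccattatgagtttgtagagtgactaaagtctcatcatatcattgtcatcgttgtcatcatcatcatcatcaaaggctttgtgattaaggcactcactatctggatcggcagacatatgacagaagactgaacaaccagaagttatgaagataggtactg
ARHGAP22: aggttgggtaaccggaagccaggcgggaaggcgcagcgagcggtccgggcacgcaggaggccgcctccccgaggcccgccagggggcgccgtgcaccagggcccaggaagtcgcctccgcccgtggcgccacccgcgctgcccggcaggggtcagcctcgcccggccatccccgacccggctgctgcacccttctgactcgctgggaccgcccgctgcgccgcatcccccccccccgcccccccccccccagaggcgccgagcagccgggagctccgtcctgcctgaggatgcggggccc
ADARB1: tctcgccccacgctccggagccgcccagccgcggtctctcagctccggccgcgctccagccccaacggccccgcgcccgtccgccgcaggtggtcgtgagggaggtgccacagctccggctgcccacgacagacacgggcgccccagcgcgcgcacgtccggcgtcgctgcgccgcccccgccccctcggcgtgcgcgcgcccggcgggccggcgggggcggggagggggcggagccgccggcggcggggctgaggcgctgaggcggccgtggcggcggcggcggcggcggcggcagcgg
H2AC11: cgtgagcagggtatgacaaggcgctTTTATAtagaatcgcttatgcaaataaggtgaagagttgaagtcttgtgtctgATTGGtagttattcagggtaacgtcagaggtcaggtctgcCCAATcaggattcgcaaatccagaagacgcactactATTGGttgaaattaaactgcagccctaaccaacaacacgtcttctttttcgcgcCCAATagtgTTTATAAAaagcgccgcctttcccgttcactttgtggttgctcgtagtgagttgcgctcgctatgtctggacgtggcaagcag
TUBB3: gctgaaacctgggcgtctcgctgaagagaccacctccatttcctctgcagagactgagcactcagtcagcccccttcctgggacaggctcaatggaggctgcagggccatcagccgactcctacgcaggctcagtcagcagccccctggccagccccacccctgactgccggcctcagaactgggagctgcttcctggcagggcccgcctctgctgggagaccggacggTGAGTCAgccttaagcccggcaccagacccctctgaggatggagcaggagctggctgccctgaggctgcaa

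CBFA2T3, ARHGAP22 and ADARB1, 2 among the lowest and 1 among the highest, held none of the 5 motifs in a window of 79.0% to 84.3% G and C. HEMGN, at 37.3% G and C, held 1 match to TATAAA. H2AC11 held 3 matches to TATAAA and 4 to CCAAT, and 2 of the TATAAA matches overlap, on opposite strands, in a single stretch. TUBB3 held 1 match to TGACTCA. Over the 27305 genes of the promoter table, AGATAA was found in 10.5% of windows, CACGTG in 7.43%, TATAAA in 12.0%, CCAAT in 35.7% and TGACTCA in 4.92%. A window was at hand for 8104 of 9823 protein-coding genes compared and for 1189 of the 1473 lower ones (80.7%). AGATAA stood in 6.73% of the lower genes' windows, beside 4.62% of all compared, CACGTG in 14.2% beside 10.9%, and CCAAT in 29.02% beside 38.1%. TATAAA stood in 5.89% of the lower genes' windows beside 5.21%, and TGACTCA in 4.04% beside 2.73%. For the higher genes a window was at hand for 253 of 317 (79.8%), under the least coverage of 80% set for such a comparison, so it is void for them and no shares are given. A match is only a match of letters, not a bound site.

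Of 24 measured genes for BET proteins, P-TEFb, the 7SK complex, the super elongation complex and related factors, none was at -1 or less and 2 were at 1 or more, with a median log2 ratio of -0.20 (0.13 with TMM scaling), where 14.9% and 3.42% of all genes were. The others ran from -0.96 for NELFCD (715 reads in JQ1, 1409 in DMSO), a subunit of the pausing factor NELF, to 0.75 for ELL2 (724 in JQ1, 435 in DMSO), an elongation factor of the super elongation complex. MLLT1, a YEATS-domain reader of that complex, stood at -0.81, LARP7, a 7SK-binding protein, at -0.71, and AFF4, the scaffold of the super elongation complex, at 0.54. The 2 at 1 or more were HEXIM1 and BRD2. HEXIM1 stood at 596, 1382 and 2250 reads per 1000000 fly reads at 2, 4 and 8 h in JQ1, against 372, 460 and 567 in DMSO, with 312 at 0 h. The level of HEXIM1 in JQ1 was above DMSO at each time, and at 8 h it was 3.97-fold DMSO (3.70 to 4.26). BRD2, itself a target of JQ1, was at 5543, 6850 and 9919 in JQ1, against 6182, 5315 and 4071 in DMSO. BRD2 was not above DMSO at 2 h (log2 -0.16) and was 2.44-fold DMSO at 8 h (2.37 to 2.51).

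Genes known as BET-inhibition markers were all higher. All 10 measured of 13 listed were at 1 or more, with a median log2 ratio of 2.05, where 3.42% of all genes were. They were listed because such genes are known to go up, and from knowledge of earlier results here. Their direction therefore follows in part from the choice, and is neither a finding nor a check of the drug's action. SERPINI1, a serine protease inhibitor, had 242 reads in JQ1 and 11 in DMSO, and none in the 0 h library. TXNIP, a regulator of glucose uptake and redox balance, was the least raised of the 10, at log2 1.11. Polyadenylated histone genes overlap that list: 13 of 20 measured (65.0%) were at 1 or more and none at -1 or less, with medians of 0.15, 0.63 and 1.69 at 2, 4 and 8 h. Of the 13, H3C4 passed the read minimum only through the JQ1 8 h library in which it was high. H2BC5 stood at 363, 630 and 1055 in JQ1, against 310, 204 and 181 in DMSO, with 326 at 0 h. H2BC5 in JQ1 was thus above and in DMSO below the starting level. H3C10 was at 1218 in JQ1 and 171 in DMSO at 8 h, and the linker histone gene H1-2 at 7916 in JQ1 and 3419 in DMSO. Members outside the call included the replication-independent H3-3A (log2 0.49) and H3-3B (0.60), and H2AZ2 (0.19). Histone genes are near-identical copies, so reads could be split between them, and single members are uncertain. Only polyadenylated RNA was read, so histone RNA without a poly(A) tail was not measured.

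**Figure D2:**
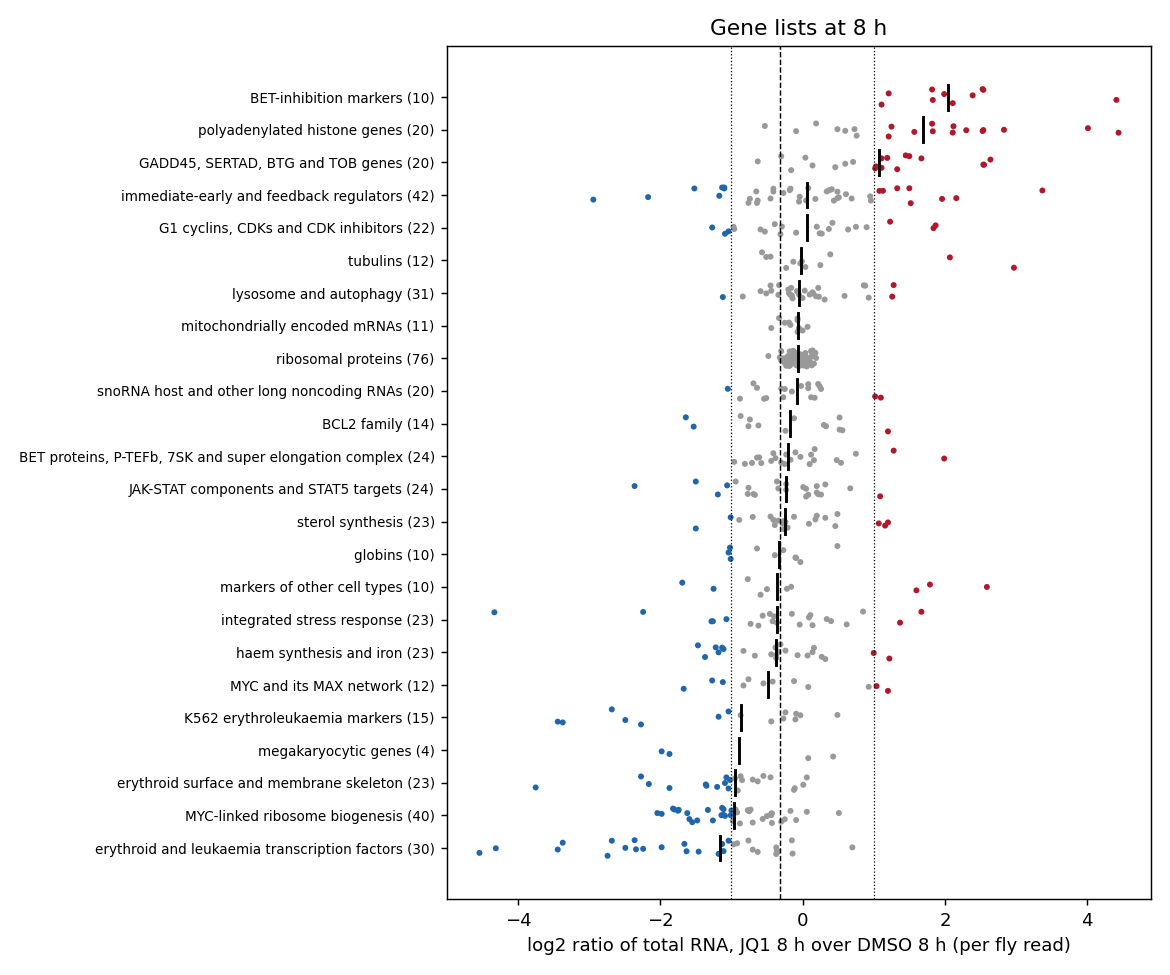
Log2 ratio of total RNA, JQ1 8 h over DMSO 8 h per fly read, for the measured members of each of 24 gene lists (number measured in brackets), with 1 point per gene, red at 1 or more and blue at -1 or less. Black bars are list medians, the dashed line the median of all genes. The lists named for erythroid transcription factors and MYC-linked ribosome biogenesis lie at the bottom, the BET-inhibition markers and histone genes at the top, and the ribosomal proteins in a narrow band.

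Erythroid and leukaemia transcription factors formed the lowest list. Of 30 measured, 18 were at -1 or less and none at 1 or more, with a median of -1.16 (-0.83 with TMM scaling), where 14.9% of all genes were that low. KLF1, the Krüppel-like activator of globin and membrane genes, was at 293, 123 and 81.3 in JQ1, against 530, 392 and 842 in DMSO, with 556 at 0 h. KLF1 at 8 h was at 9.66% of DMSO (8.08 to 11.5%), having been below it from 2 h on. NFE2, an erythroid bZIP factor, was at 339, 92.6 and 77.3 in JQ1, against 497, 318 and 840 in DMSO, with 629 at 0 h. GATA1, the master regulator of the lineage, was at 618, 519 and 184 in JQ1, against 972, 794 and 1038 in DMSO, with 961 at 0 h. The gap of GATA1 opened mainly after 4 h (log2 -0.65, -0.61 and -2.49), as did that of LMO2, a bridging subunit of the GATA1 and TAL1 complex (-0.47, -0.63 and -2.68). TAL1 itself was less low: its level in JQ1 was 508 at 4 h and 805 at 8 h, against 1262 and 1827 in DMSO. Also at -1 or less were GFI1B, STAT5A, LYL1, SPI1, MYB, RUNX1, IKZF1, TRIM58, ZFPM1, LDB1 and GATA2, beside CBFA2T3 and HEMGN. TRIM58, which is on the list but encodes a ubiquitin ligase and not a transcription factor, had 17 reads in JQ1 and 48 in DMSO.

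Among erythroid membrane and surface genes, 11 of 23 measured (47.8%) were at -1 or less and none at 1 or more, where 14.9% and 3.42% of all genes were, with a median of -0.95. They included the erythropoietin receptor EPOR (21 reads in JQ1, 104 in DMSO) and the glycophorin genes, which resemble each other in sequence, GYPE (364 in JQ1, 1646 in DMSO) and GYPB (725 in JQ1, 1561 in DMSO). Among genes of haem synthesis and iron, 6 of 23 (26.1%) were at -1 or less and 2 (8.70%) at 1 or more, with a median of -0.37 that is near that of all genes. The lower ones included the transferrin receptor TFR2 (log2 -1.47) and the mitochondrial iron importer SLC25A37 (-1.22). The higher ones were ALAS1, the housekeeping form of the enzyme that starts haem synthesis, and ALAD, the enzyme after it. ALAD was at 347 in JQ1 and 149 in DMSO, and ALAS1 had 368 reads in JQ1 and 185 in DMSO. Of 10 globin genes and their chaperone measured, 3 (30.0%) were at -1 or less, AHSP, HBD and HBB, all with few reads. The abundant ones stood close to DMSO: HBG2 was at 29140 in JQ1 and 31170 in DMSO (log2 -0.10, and 0.23 with TMM scaling), HBZ at 7162 in JQ1 and 7620 in DMSO (log2 -0.09, and 0.24 with TMM scaling), and HBE1 at a log2 of 0.49. Of 15 K562 markers, 7 (46.7%) were at -1 or less, among them KLF1, NFE2, GATA1, LMO2 and TAL1, beside near-level globin mRNA in the same library. Copies of globin genes share sequence, and the split of reads between them is uncertain. Only 4 of 20 megakaryocytic genes were measured, and 2 of them, F2R and GP6, were at -1 or less.

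MYC, MYB and PIM1 were lowest in JQ1 at 4 h and higher again at 8 h. MYC was at 85.5, 56.5 and 223 in JQ1, against 160, 325 and 710 in DMSO, with 237 at 0 h. In JQ1 the MYC level at 8 h was thus close to that of 0 h (log2 -0.08), while DMSO stood above it (log2 1.58), and the ratio was 0.315 (0.280 to 0.353). MYB, a factor of immature blood cells, was at 743, 418 and 768 in JQ1, against 1041, 1935 and 3039 in DMSO, with 901 at 0 h. MYB at 8 h was at 25.3% of DMSO (23.8 to 26.8%), a smaller gap on the log2 scale than at 4 h (-1.98 against -2.21). PIM1, a kinase gene downstream of STAT5, was at 422, 217 and 589 in JQ1, against 727, 1052 and 1671 in DMSO, with 405 at 0 h. The PIM1 level in JQ1 was above 0 h by 8 h and still at 35.3% of DMSO (32.8 to 37.9%). In JQ1 these 3 genes were higher at 8 h than at 4 h (log2 1.98 for MYC, 0.88 for MYB and 1.44 for PIM1), and still below DMSO. Of 12 measured genes of the MYC and MAX network, 3 (25%) were at -1 or less (MYC, MYCL, MXI1), where 14.9% of all genes were, and 2 (16.7%) were at 1 or more, where 3.42% were: MXD1 (1036 reads in JQ1, 454 in DMSO) and MXD4 (643 in JQ1, 315 in DMSO), which encode MAX partners that oppose MYC.

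Of 40 genes linked to MYC, most of them for ribosome biogenesis and all measured, 19 (47.5%) were at -1 or less and none at 1 or more, where 14.9% and 3.42% of all genes were, with medians of -0.45, -0.42 and -0.96 at 2, 4 and 8 h. The list also holds the metabolic enzyme genes CAD (log2 -1.33, among the 19), SRM (-0.88), LDHA (0.06) and ODC1 (0.51). RRP9, a protein of the U3 nucleolar particle, was at 119, 145 and 108 in JQ1, against 213, 170 and 446 in DMSO. Other low members were RRS1 (354 reads in JQ1, 1413 in DMSO), NOP16 (1356 in JQ1, 4826 in DMSO) and UTP20 (168 in JQ1, 593 in DMSO), all factors of ribosomal subunit assembly. Of the 40 genes, 31 were within 2-fold of 0 h in JQ1, as were 8275 of all 11797 genes. The median log2 difference of the 40 from 0 h was -0.37 in JQ1 and 0.59 in DMSO, beside 0.15 and 0.51 over all genes. UTP20 stood above 0 h in both arms (log2 1.02 in JQ1, 2.82 in DMSO). BYSL, needed for the small subunit, was the 1 member low at all 3 times (log2 -1.23, -1.32 and -1.48). The ribosomal protein genes did not follow: none of 76 measured was past 1 in either direction, and their median was -0.07, which is 0.26 with TMM scaling.

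**Figure D3:**
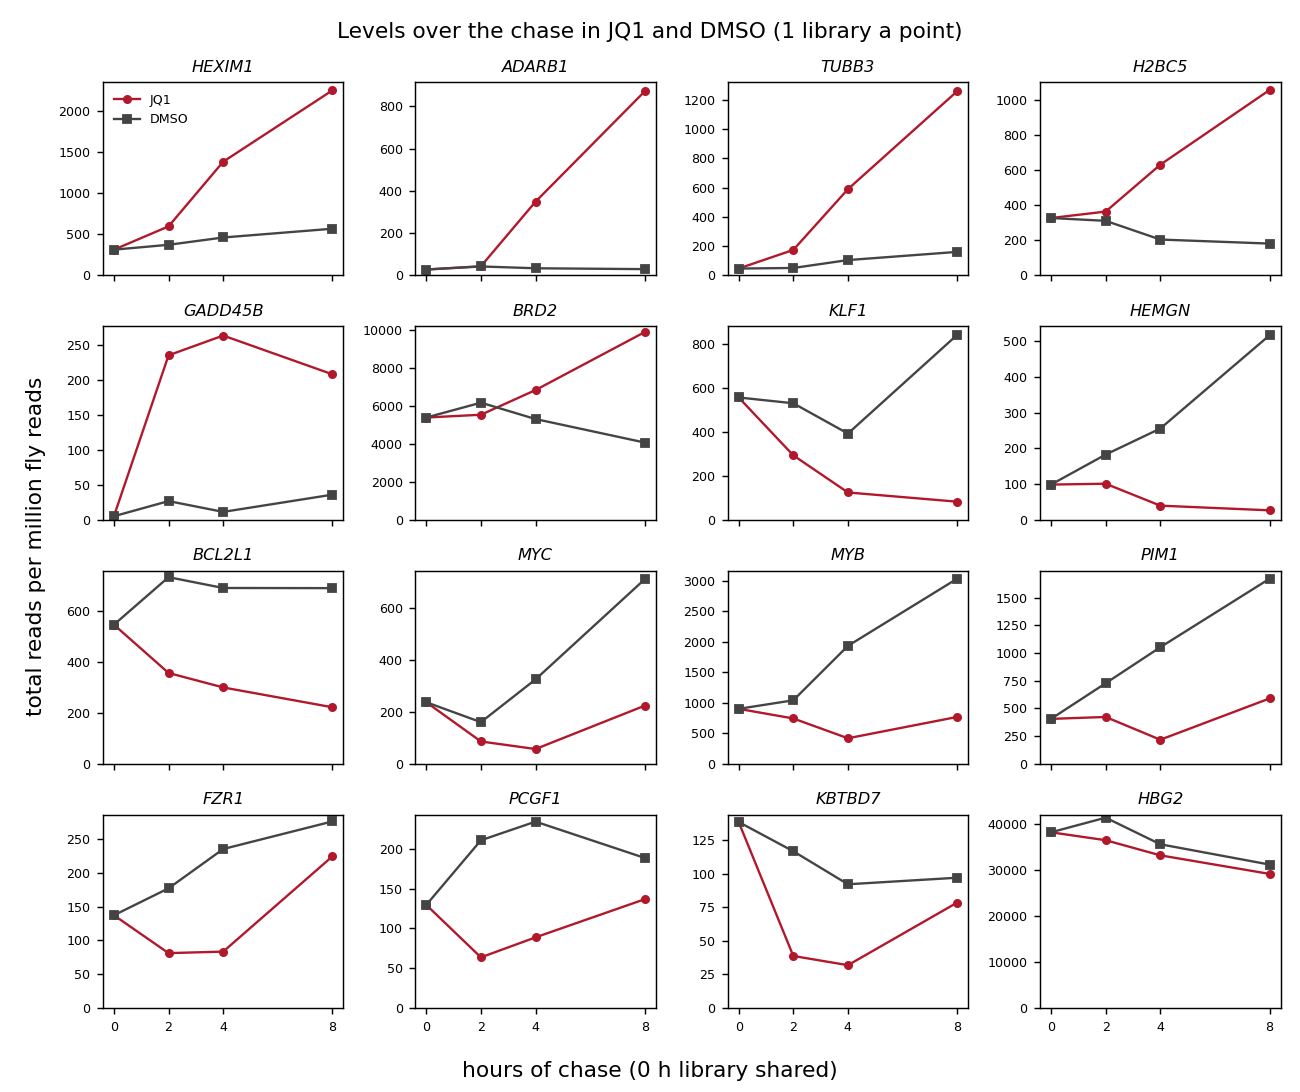
Total reads per 1000000 fly reads of 16 genes over hours of chase in JQ1 (red circles) and DMSO (grey squares), 1 library a point, with the 0 h library shared. KLF1 and HEMGN separate from DMSO with no return, MYC, MYB and PIM1 reach their lowest point at 4 h in JQ1, FZR1, PCGF1 and KBTBD7 lie nearer to DMSO at 8 h, and ADARB1, TUBB3 and H2BC5 stand higher at each later time.

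To ask which genes stayed low, 203 genes were taken that were at -1 or less at 2 h and at 4 h, in libraries other than the 8 h pair. Of all genes, 5.1% were that low at 2 h and 8.26% at 4 h. At 8 h, 111 of them (54.7%) were still at -1 or less, where 14.9% of all genes were, 38 (18.7%) were above -0.5 and 54 (26.6%) lay between. The median of all genes at 8 h was -0.31, so most genes compared stood above -0.5. With TMM scaling the genes that stayed low numbered 31. With early low taken from the 2 h libraries alone, 206 genes stayed low and 253 were above -0.5, and from the 4 h libraries alone 521 stayed low and 208 were above -0.5. Of the 68 early low genes with a mean of at least 100 reads, 41 stayed low, 8 were above -0.5 and 19 lay between. The genes that stayed low had a median log2 ratio of -1.25, -1.47 and -1.86 at 2, 4 and 8 h. Against 0 h their median at 8 h was -0.55 in JQ1 and 1.19 in DMSO. Among listed genes BCL2L1, FOSL1, TNFAIP3 and BYSL stayed low. BCL2L1 encodes the survival protein BCL-XL. Its level was 356, 299 and 221 in JQ1, against 731, 689 and 688 in DMSO, with 545 at 0 h. BCL2L1 is thus a case of a lower level at each later time in JQ1 beside a steady one in DMSO, and at 8 h it was at 32.1% of DMSO (28.6 to 36.1%). FOSL1, the AP-1 subunit FRA1, was at 110, 57.6 and 24.1 in JQ1, against 252, 186 and 186 in DMSO. TNFAIP3, or A20, which damps NF-κB signalling, was at 61.1, 49.3 and 26.9 in JQ1, against 171, 131 and 123 in DMSO. Both were further from DMSO at 8 h than at 2 h.

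The 38 genes back above -0.5 were of low abundance, with a median of 45.8 reads per library over the series, beside 225 for all genes. Their median log2 ratio was -1.25, -1.27 and -0.30 at 2, 4 and 8 h, the last being close to the median of all genes. Against 0 h their median in JQ1 was -0.73, -0.71 and 0.56 at 2, 4 and 8 h, and in DMSO 0.65 at 8 h. PCGF1, a subunit of Polycomb complex PRC1, was at 63.6, 88.8 and 137 in JQ1, against 211, 235 and 189 in DMSO, with 130 at 0 h. KBTBD7, a substrate adaptor of a cullin ubiquitin ligase, was at 38.7, 31.8 and 78.5 in JQ1, against 117, 92.1 and 97.0 in DMSO, with 139 at 0 h. The KBTBD7 interval at 8 h held 1 (0.642 to 1.02), and neither arm was back at the 0 h level. FZR1, the CDH1 activator of the anaphase-promoting complex, was at 81.1, 83.3 and 225 in JQ1, against 177, 235 and 276 in DMSO, with 137 at 0 h. FZR1 in JQ1 at 8 h therefore stood above its 0 h level. Others with at least 100 reads were GPATCH3, CSTF1 (a subunit of the cleavage stimulation factor), MED9 (a Mediator subunit) and ZNF100, with log2 ratios of -0.30 to -0.48. FZR1, GPATCH3 and KBTBD7 are above 0 with TMM scaling.

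Of all genes, 1.47% were at 1 or more at 2 h and 2.69% at 4 h, and 88 were so at both. Of these, 50 (56.8%) were still at 1 or more at 8 h, where 3.42% of all genes were, and 25 (28.4%) were under 0.5. With the median of all genes at -0.31, most genes compared stood under 0.5 at 8 h. Taken from the 4 h libraries alone, 158 stayed high, and with TMM scaling 91. Of the 19 with at least 100 reads on average, 11 stayed high, 3 lay between and 5 were under 0.5. The median log2 ratio of those that stayed high was 1.31, 1.97 and 2.24 at 2, 4 and 8 h. Among listed and named genes these were TUBB3, GADD45B, FGF18, SERTAD1, IER5, PNRC1, ARC and the fibroblast marker COL1A1. APOA1, a liver marker, met the same rule with 4 reads in JQ1 and 1 in DMSO at 8 h, too few to describe. GADD45B, a stress-responsive regulator of growth arrest, was at 236, 264 and 209 in JQ1, against 26.5, 10.96 and 35.7 in DMSO, with 4.73 at 0 h. GADD45B was therefore high by 2 h and level from then on, and at 8 h it was 5.84-fold DMSO (4.46 to 7.75). EGR1, an immediate-early zinc finger gene picked after its values were seen, had another course: it was at 1718, 277 and 311 in JQ1, against 232, 138 and 218 in DMSO. EGR1 at 8 h had a log2 ratio of 0.51, after 2.89 at 2 h.

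**Figure D4:**
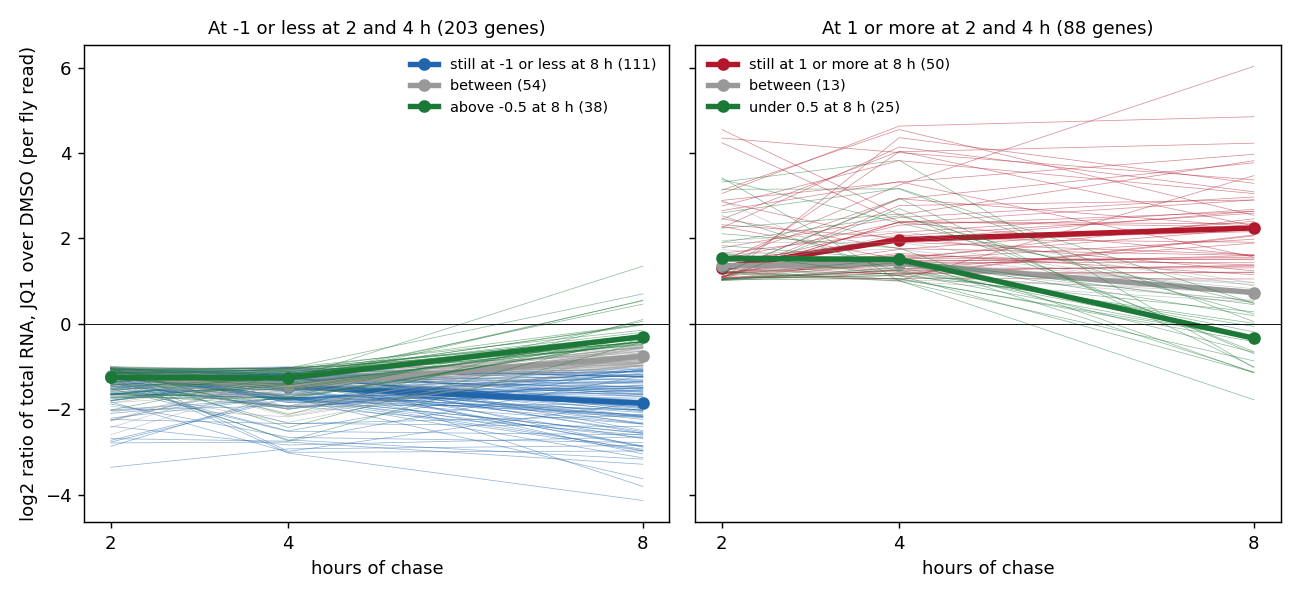
Log2 ratio of total RNA, JQ1 over DMSO per fly read, at 2, 4 and 8 h for the 203 genes at -1 or less (left) and the 88 at 1 or more (right) at 2 and 4 h, with 1 thin line per gene and thick lines for medians, coloured by where the gene stood at 8 h. Of the genes low early, 111 stayed low with a median of -1.86 and 38 came back to -0.30, and of the genes high early, 50 stayed high with a median of 2.24.

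Some genes were past 1 or -1 in a given direction only at 8 h. Under 0.5 at 2 and 4 h but at 1 or more at 8 h were 125 genes (1.06%). Above -0.5 at 2 and 4 h but at -1 or less at 8 h were 380 (3.22%). The early limits bound 1 side only, so a late high gene can have been below DMSO early, such as CARHSP1 (log2 -0.63 at 2 h). With TMM scaling 220 genes were late high and 403 late low. Without the 4 h libraries the late high and late low counts were 282 and 955, and without the 2 h libraries 144 and 602. Among the late high genes with at least 100 reads, TAF9, which encodes a subunit of TFIID, was at 1006, 1190 and 2663 in JQ1, against 1192, 904 and 747 in DMSO, and its locus overlaps another annotated gene, so its reads are uncertain. MRNIP, PNPLA8 (a phospholipase), MT2A (a metallothionein), FAM120B and CARHSP1 followed, with log2 ratios of 1.69 to 1.35. Among the late low genes NFIA, a transcription factor of the nuclear factor I family, was at 384, 174 and 76.7 in JQ1, against 298, 246 and 423 in DMSO, with 154 at 0 h. NFIA was thus above DMSO at 2 h and at 18.1% of it at 8 h (15.0 to 21.8%). CAVIN2, a coat protein of caveolae, was at 144, 81.7 and 20.0 in JQ1, against 175, 104 and 149 in DMSO. DENND1B, TOMM40L, IGFBP4 (an insulin-like growth factor binding protein) and PRR5 (a subunit of mTORC2) had log2 ratios from -2.51 to -2.29.

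In the list of GADD45, SERTAD, BTG, TOB and related growth-restraining genes, 12 of 20 measured (60.0%) were at 1 or more and none at -1 or less, where 3.42% and 14.9% of all genes were, with a median of 1.07. Of the 12, PNRC1, SESN3 and BTG2 passed the read minimum only through the JQ1 8 h library in which they were high. Their place in the count therefore follows in part from the filter. PNRC1, a nuclear receptor coregulator, had 213 reads in JQ1 and 34 in DMSO (log2 2.64), and SESN2, a sestrin that restrains mTORC1, was at 1240 in JQ1 and 389 in DMSO. Of 42 immediate-early and feedback regulators, 7 (16.7%) were at -1 or less, near the share of all genes, and 8 (19.05%) at 1 or more, with a median of 0.06. ATF3, a stress-induced bZIP factor, had 311 reads in JQ1 and 70 in DMSO, and JUN was at 1377 in JQ1 and 549 in DMSO, in contrast to the low FOSL1. Of 22 genes of G1 control, 3 were at -1 or less, CCND2, E2F4 and CDK4, and 3 at 1 or more, each 13.6%, beside 14.9% and 3.42% of all genes. The higher ones were all CDK inhibitors: CDKN1A (289 reads in JQ1, 81 in DMSO), CDKN1C (172 in JQ1, 47 in DMSO) and CDKN2D (212 in JQ1, 91 in DMSO). The median of that list was 0.06.

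Of 14 BCL2 family genes measured, 2 (14.3%) were at -1 or less, the share found over all genes (14.9%), and 1 (7.14%) at 1 or more, so the counts say nothing particular about the family. The lower ones, BCL2L1 and BCL2L2 (89 reads in JQ1, 260 in DMSO), encode survival proteins, and the higher one, BCL2L11, encodes the pro-death protein BIM and was at 333 in JQ1 and 145 in DMSO. MCL1, another survival gene, was at 3581 in JQ1 and 2429 in DMSO (log2 0.56), so the survival genes did not differ from DMSO in a single direction. Of 24 JAK-STAT components and STAT5 targets, 4 (16.7%) were at -1 or less, again near the share of all genes: STAT5A (234 reads in JQ1, 1215 in DMSO), PIM1, STAT6 and GAB2. Of the 24, 1 (4.17%, beside 3.42% of all genes), the feedback inhibitor SOCS3, was at 1 or more (1299 reads in JQ1, 616 in DMSO). CISH, another STAT5 target, had a log2 ratio of -0.36.

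The metabolic and housekeeping lists had medians between -0.36 and -0.02, and their counts are to be read against 14.9% of all genes at -1 or less and 3.42% at 1 or more. In the integrated stress response list 5 of 23 (21.7%) were at -1 or less and 2 (8.70%) at 1 or more. STC2, a secreted glycoprotein induced in that response, was at 5.15 in JQ1 and 109 in DMSO, and the ATF4 target TRIB3 was at 38.9 in JQ1 and 185 in DMSO, while ATF4 itself had a log2 ratio of 0.11. Of 23 genes of sterol synthesis and uptake, 2 (8.70%) were at -1 or less, among them PMVK, and 3 (13.04%) at 1 or more, TM7SF2, INSIG1 and IDI1. In the lysosome and autophagy list 1 of 31 (3.23%) was at -1 or less (CTSZ) and 2 (6.45%) at 1 or more, the autophagy receptor SQSTM1, at 3811 in JQ1 and 1590 in DMSO, and the sialidase NEU1. Of 12 tubulins none was at -1 or less and 2 (16.7%) were at 1 or more, TUBB3 and TUBB4B, the last of which was at 15960 in JQ1 and 3799 in DMSO, while TUBA1B had a log2 ratio of 0.04. Of 11 mitochondrially encoded mRNAs none was past 1, with a median of -0.07. Of 20 snoRNA host and other long noncoding RNAs, SNHG15 (5.0%) was at -1 or less and NEAT1 and SNHG12 (10.0%) at 1 or more. The medians of the sterol, lysosome, tubulin, mitochondrial, noncoding, BCL2 and JAK-STAT lists ran from -0.24 to -0.02 per fly read and are above 0 with TMM scaling. Among markers of other cell types, 2 of 10 measured were at -1 or less (CD3D, EPCAM) and 3 at 1 or more. Those 3 had few reads: COL1A1 had 68 in JQ1 and 11 in DMSO, CD14 39 in JQ1 and 11 in DMSO, and APOA1 4 in JQ1 and 1 in DMSO. COL1A1 passed the read minimum only through the JQ1 8 h library. The part of these markers in the results was not tested.

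In this design 4-thiouridine was present only in the pulse, before JQ1 was added, but the rule by which a read was counted as labelled was not stated in the labels. Labelled reads can therefore not be equated with RNA made in the pulse. Per fly read, 214 of 8817 genes (2.43%) had more labelled reads in JQ1 at 8 h than at 0 h and 254 (2.88%) in DMSO, although RNA of the pulse cannot increase in the chase. TUBB3 was among them, with 97.4 labelled reads per 1000000 fly reads in JQ1 and 11.9 in DMSO at 8 h, and 25 at 0 h. ADARB1 was another, with 56.7 in JQ1 and 5.67 in DMSO at 8 h, and 15.5 at 0 h. At 8 h labelled reads were 14.7% of total reads in JQ1 and 13.2% in DMSO. Unlabelled reads per fly read were 6.77 in JQ1 and 7.88 in DMSO, and labelled reads 1.16 in JQ1 and 1.20 in DMSO. The difference between the arms thus lay mainly in unlabelled RNA. In unlabelled RNA 1900 of 11066 genes (17.2%) were at -1 or less and 360 (3.25%) at 1 or more. In labelled RNA the counts were near even, with 524 of 8817 genes (5.94%) at -1 or less and 537 (6.09%) at 1 or more. With TMM scaling the labelled counts were 260 and 980. Over the 8698 genes measured in both kinds of read, the median log2 ratio was -0.05 for labelled and -0.35 for unlabelled RNA.

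Genes chosen for low total RNA were lower in both kinds of read. Most of their reads in DMSO were unlabelled, so a low unlabelled ratio follows from the choice and is no finding. The 1072 of them measured in both kinds had medians of -0.49 for labelled and -1.49 for unlabelled RNA, beside -0.05 and -0.35 over all genes. Their median labelled share was 14.5% in JQ1 and 7.30% in DMSO, beside 12.5% in JQ1 and 10.2% in DMSO over all genes. It was higher in JQ1 for 972 of them (90.7%), where it was for 6282 of all 8698 genes (72.2%). Total reads are the divisor of the share, so a higher share in JQ1 also follows in part from the choice and is no finding. NFE2 had 15 labelled reads in JQ1 and 21 in DMSO (ratio 0.721, interval 0.346 to 1.47), and its unlabelled reads were at 8.30% of DMSO. GATA1 had labelled reads at 56.7% of DMSO (ratio interval 0.386 to 0.823) and unlabelled reads at 15.95%. Labelled ratios were lower, with intervals below 1, for HEMGN, CCDC26, RHOH and RAB3IL1 among the 12 lowest genes. HEMGN had 14 labelled reads in JQ1 and 76 in DMSO (ratio 0.186, interval 0.0971 to 0.332), and CCDC26 11 in JQ1 and 55 in DMSO (ratio 0.202, interval 0.0953 to 0.390). RHOH and RAB3IL1 each had 2 in JQ1 and 11 in DMSO (ratio 0.184, interval 0.0198 to 0.841). MYB and NR2F2, a nuclear receptor, also had fewer labelled reads in JQ1: MYB 119 in JQ1 and 270 in DMSO, NR2F2 77 in JQ1 and 250 in DMSO. The lowest labelled ratio among genes with at least 100 labelled reads on average was that of ZFP36L2, an RNA-binding protein that promotes mRNA decay, with 8 labelled reads in JQ1 and 35 in DMSO.

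For the 158 genes high in total RNA and measured in both kinds, the medians were 1.04 for labelled and 1.34 for unlabelled RNA. Labelled reads are part of the total by which these genes were chosen, so a higher labelled median follows in part from the choice. The median labelled share of the 158 genes was 6.11% in JQ1 and 7.97% in DMSO. It was higher in JQ1 for 55 of 158 (34.8%), where it was for 72.2% of all 8698 genes. Total reads are the divisor of the share, so a lower share in JQ1 follows in part from the choice too. HEXIM1 had 211 labelled reads in JQ1 and 50 in DMSO (ratio 4.26, interval 3.12 to 5.92), close to its unlabelled ratio of 3.95, and a labelled share of 5.37% in JQ1 and 5.00% in DMSO. TUBB3 had 170 labelled reads in JQ1 and 21 in DMSO. H2BC5 differed, with a labelled ratio of 2.15 (1.497 to 3.14) and an unlabelled ratio of 6.44. JUN, with 75 labelled reads in JQ1 and 12 in DMSO, had the highest labelled ratio among the genes with at least 100 labelled reads on average, followed by CNOT4, HEXIM1, JUND, CCNL1 and FBXW7.

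**Figure D5:**
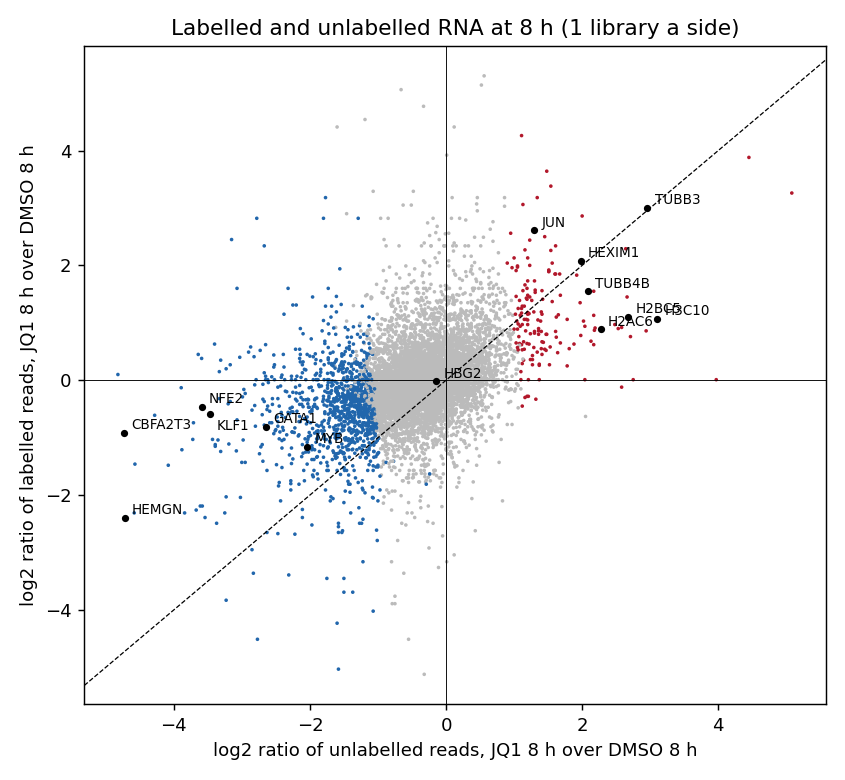
Log2 ratio of labelled reads against that of unlabelled reads, JQ1 8 h over DMSO 8 h per fly read, for 8698 genes measured in both, coloured red where total RNA was at 1 or more and blue where it was at -1 or less. The dashed line marks equal ratios. Blue points such as NFE2 and KLF1 lie far to the left, at labelled log2 ratios of -0.46 and -0.59, while TUBB3 and HEXIM1 lie close to the line.

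The CDK9 inhibitor arm shares the DMSO library, so its values are only set beside those of JQ1. At 8 h the log2 ratio to DMSO of HEXIM1 was 1.99 in JQ1 and -4.01 in AZ-5576. For MYC it was -1.67 in JQ1 and -6.86 in AZ-5576. For KLF1 it was -3.37 in JQ1 and -4.95 in AZ-5576, and for GATA1 -2.49 in JQ1 and -1.83 in AZ-5576. JQ1 was thus nearer to DMSO than AZ-5576 for MYC and KLF1 and further from it for GATA1.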

How the data were processed

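The authors deposited raw read counts per gene in 3 tables, for all human reads, for reads named nascent (taken here as labelled reads) and for fly reads. Per the labels' protocols, libraries were made with the QuantSeq 3′ kit, forward version. The builds hg38 and dm6 and the tools bedtools, Trim Galore (0.6.5) and bcl2fastq (2.17.1.14) are named in the submitters' processing notes. The aligner and the counting and labelling rules are not given in the sources used here. Symbols were matched for 55381 identifiers, and gene classes and positions are those of GENCODE 29.

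Unlabelled reads are total minus labelled reads. The log2 ratio is that of count plus 0.5 over fly reads, JQ1 over DMSO, and a gene was called at 1 or more or -1 or less. Intervals are exact conditional binomial (Clopper-Pearson) intervals at 95%, computed with scipy 1.17.1 and tested on simulated counts. TMM factors came from edgeR 4.0.16, used for scaling only. With 1 library a side no model was fitted.

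The members and the 24 gene lists were chosen with earlier results of these data known. Named genes are the 12 lowest and 12 highest at 8 h with a mean of at least 100 reads and the same sign at 2 and 4 h, the 8 highest of the genes low early, the 6 most extreme late low, late high, labelled low and labelled high genes, up to 4 members a list with at least 50 reads, and a panel of known BET, erythroid and control genes. Further list members named with a count were picked after their values were seen. Some genes that this rule takes are not reported here.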

Additional observations from a re-analysis of the deposited data

Results flagged for a closer look

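The ratio of JQ1 to DMSO at 8 h was at the opposite side of 1 or -1 from that at both 2 and 4 h for 7 genes, all of low counts, and the difference between the times was not tested. BMX had a log2 ratio of -1.78 at 8 h, with 10 reads in JQ1 and 36 in DMSO, after 3.42 at 2 h and 1.01 at 4 h. FAM227B had -1.14, with 20 reads in JQ1 and 45 in DMSO. HBB, the adult beta globin, had -1.01, with 13 reads in JQ1 and 27 in DMSO, after 2.94 at 4 h. The pseudogenes BTF3P5 (-1.03), BTF3P7 (-1.15) and RPL35AP36 (-1.13) turned the same way, and RPS25P4 (1.35, with 36 reads in JQ1 and 14 in DMSO) the other way. Pseudogenes share sequence with their parents, and the assignment of these reads is uncertain.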

How the results depend on the processing

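Directions of the named genes held under each scaling, except for 16 genes with log2 ratios between -0.32 and 0.02 per fly read, which lie above 0 with TMM scaling or below 0 with the fly median of ratios. Counts moved with the settings. In the order lower and higher for total, unlabelled and labelled RNA, then stayed low, came back, stayed high, late high and late low, they were as follows where they differed by more than 1.5-fold. With TMM scaling they were 987 and 754, 1069 and 673, 260 and 980, then 31, 19, 91 and 220 (late low stayed within the limit). With the human read total, labelled lower genes numbered 346, and 39 stayed low, 20 came back and 79 stayed high. At a log2 threshold of 1.5 the counts were 745 and 171, 800 and 150, 184 and 208, then 18, 5, 16, 16 and 125. With a mean of at least 100 reads they were 943 and 152, 983 and 140, 85 and 82, then 41, 8, 11, 54 and 178. With no minimum beyond a read in each library compared, they were 3349 and 1281, 3614 and 1222, 1176 and 1112, then 244, 132, 92, 322 and 703. A pseudocount of 5 gave 267 and 307 labelled genes and 27 that stayed high. Without the 4 h libraries 206 stayed low, 253 came back, 282 were late high and 955 late low. Without the 2 h libraries 521 stayed low, 208 came back, 158 stayed high and 602 were late low. The other 40 values, which include the fly median of ratios and the demand that the interval leave out 1, lay within 1.5-fold. The fewer genes of the stricter settings follow from their construction; for the scalings, the cause was not tested. No paired analysis was possible because the labels carry no shared replicate numbers and each arm and time has 1 library. Depth limits genes of few reads, and 1 library a side leaves the spread between cultures unknown.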

Other observations

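Families picked after their values were seen showed some further patterns. Their counts are to be read against 3.42% of all genes at 1 or more and 14.9% at -1 or less. Of 18 heat shock chaperone genes measured, 4 were at a log2 ratio of 1 or more at 8 h and none at -1 or less, with a median of 0.28: HSPA1A (11283 reads in JQ1, 3921 in DMSO), HSPA1B (2911 in JQ1, 765 in DMSO), DNAJB1 (3567 in JQ1, 1350 in DMSO) and DNAJB4 (674 in JQ1, 217 in DMSO). HSPA1A and HSPA1B are near-identical copies. Their mitochondrial relatives HSPD1 (-0.41), HSPE1 (-0.36) and HSPA9 (-0.61) stood lower. Of 3 metallothionein genes measured, MT1X (1.29) and MT2A (1.41) were at 1 or more. Of 17 genes of replication licensing and deoxynucleotide supply, 3 were at 1 or more, CDC6 (1.09), RRM2 (1.31) and ASF1B (1.35), with a median of 0.01, and MCM2 had a log2 ratio of -0.71. All 3 medians are above -0.31, that of all genes.

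The highest ratio of all 11797 genes, also noticed after the values were seen, was that of an antisense gene with no symbol, ENSG00000273199, on the minus strand of chr21:36319792-36320670 (GRCh38). It had 27, 107 and 1774 reads at 2, 4 and 8 h in JQ1, against 7, 8 and 27 in DMSO, with 10 in the 0 h library, and a log2 ratio of 6.03 at 8 h. Its AZ-5576 library at 8 h held 204 reads. Of 13 small nuclear RNA genes measured, 5 were at 1 or more, where 3.42% of all genes were. Small nuclear RNA genes are near-identical copies, and reads could be split between them.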
